A study of Homo sapiens with 2 samples.

Results

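Genes of DNA damage signalling and repair were followed in H1993, an established human lung cancer line that carries an amplified MET gene (MET is a receptor tyrosine kinase), and in a derivative resistant to the MET inhibitor PHA665752. The members were chosen by symbol from the deposited mRNA count table: checkpoint kinases and their mediators, and genes of homologous recombination, end joining, the Fanconi pathway, single-strand break and base excision repair, mismatch repair and nucleotide excision repair, with MGMT and RRM2B. Of 53 listed symbols, 52 matched a row of the table's 18944 genes, and MRE11A was not analysed here. Of these, 51 reached 1 CPM (counts per 1000000 library counts) in 1 or both libraries, and MGMT had 0 counts in both.

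There was 1 library per group. The parental library came from H1993 cells whose treatment is labelled DMSO. The resistant library, labelled PHA665752, came from the same line after selection in drug raised from 1 nM up to 1 µM, with later culture in that top dose, and 1 week in medium without drug ahead of experiments. Both were grown in RPMI-1640 with serum. The labels do not say whether the resistant line is a clone, or whether cells were in drug at RNA extraction, so drug exposure and stable resistance cannot be told apart. The question asked is how these genes differ between a line and its resistant derivative.

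DNA breaks are sensed by the kinases ATM and ATR, which activate CHEK2 and CHEK1 and so halt the cell cycle while damage is repaired. Double-strand breaks are rejoined by end joining, which needs no template, or copied from the sister chromatid by homologous recombination, whose genes are most active in cycling cells. Damaged bases, mismatches and bulky lesions are removed by excision pathways that cut out and resynthesise part of 1 strand.

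Where a pair of values is given, the parental library comes first and the resistant library second. Depth was close, with totals of 16723181 and 17086748 counts. MET itself was at 4859 and 3054 CPM, and AURKB, which the series title names as a drug target, at 61.7 and 35.6 CPM. Of 5 epithelial markers, KRT8 was at 2666 and 3394 CPM and KRT18 at 1964 and 2468 CPM. EPCAM was more than 2-fold lower (389 and 164 CPM), and KRT19 (777 and 504 CPM) and CDH1 (309 and 192 CPM) were at least 1.5-fold lower. Of the lung adenocarcinoma markers NAPSA had 0 counts in both, SFTPB had 2 and 2, and NKX2-1 stood at 4.16 and 5.95 CPM. Of 14 markers of fibroblasts, leukocytes and endothelium, DCN and CD3E were at 0 in both libraries. The summed levels were 20.9 and 14.96 CPM for fibroblast markers, nearly all COL1A1, 87.5 and 34.2 CPM for leukocyte markers, nearly all CD68, and 0.356 and 29.2 CPM for endothelial markers, nearly all CDH5 (5 and 495 counts). The part of these markers in the results below was not tested. The proliferation marker MKI67 was at 881 and 959 CPM.

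Every difference below is a log2 ratio of resistant over parental, with an exact 95% interval of the counts. There is no replicate in either group, hence no test or p-value, and the intervals cover counting error only. A call at 2-fold required a log2 ratio of at least 1 in either direction together with an interval clear of 0. A second rule did the same at 1.5-fold.

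Only 3 of the 51 measured members were at least 2-fold higher in the resistant library, and 0 were at least 2-fold lower. Over all 12245 tested genes these rules called 12.1% higher and 8.29% lower, so the members' shares of 5.88% and 0% lay under the background. Among the 10665 genes with at least 5 CPM, a filter that left the members' counts unchanged, the background was nearer, at 9.38% and 7.01%. At 1.5-fold, 5 members were higher and 8 lower, or 9.80% and 15.7%, against 19.3% and 16.4% of all tested genes. The median log2 ratio of the members was -0.01, beside 0.00 over all tested genes, and the median size of the ratio was 0.40, beside 0.41. The members' ratios ran from -0.87 (FANCI) to 1.35 (ERCC2), with 24 above 0 and 27 below. Intervals excluded 0 for 41 members (80.4%), near the 74.0% of all tested genes, and no replicate shows how much cultures vary.

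**Figure D1:**
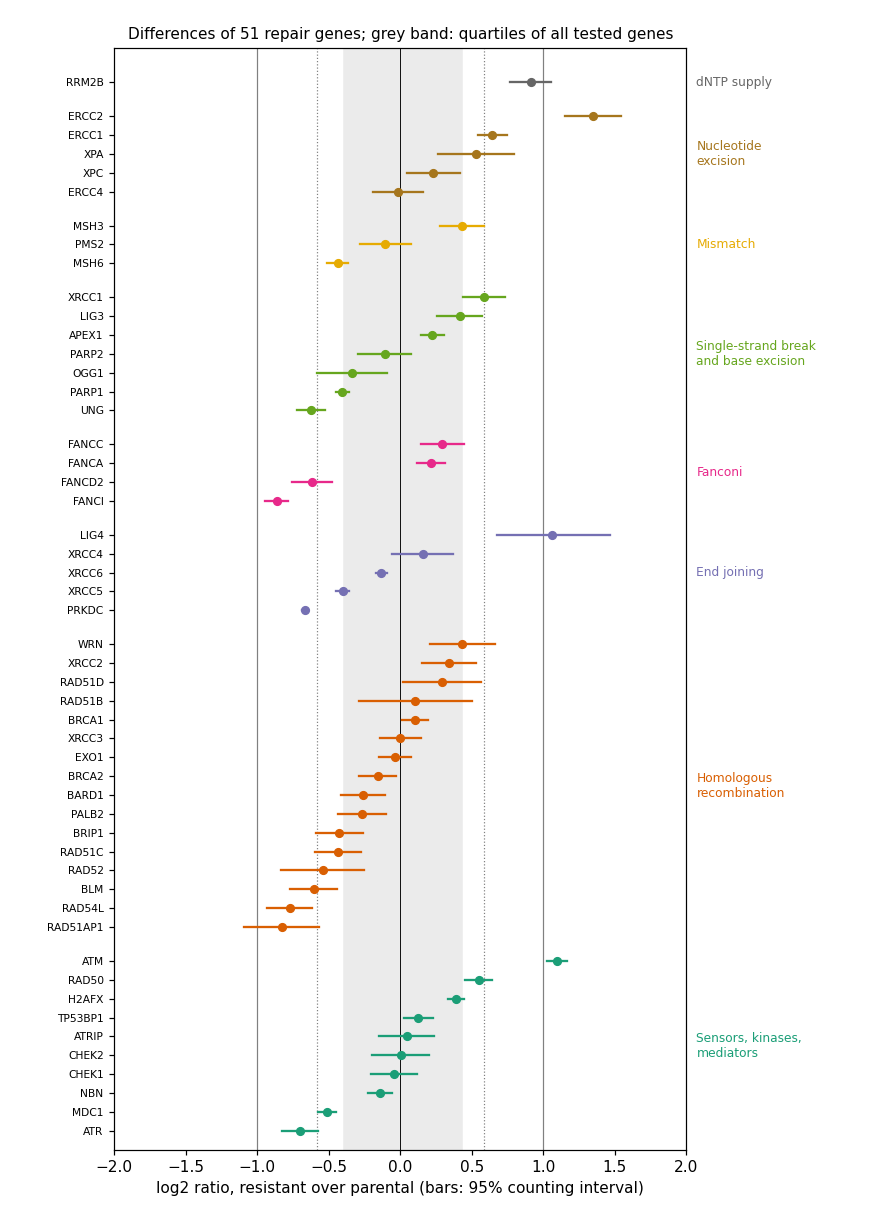
Log2 ratio of resistant over parental for 51 repair genes, grouped by role, with bars for the exact 95% counting interval. Solid lines mark 2-fold, dotted lines 1.5-fold, and the grey band spans the quartiles of all tested genes (-0.39 to 0.43); ERCC2, ATM and LIG4 lie past 2-fold on the higher side and no gene lies past it on the lower side.

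The apical kinases differed in opposite directions. ATM, the kinase that responds to double-strand breaks, had 2315 and 4989 counts (138 and 294 CPM), or 2.14-fold more in the latter (2.03 to 2.25). ATR, the kinase of stalled replication forks, had 1372 and 850 counts (81.5 and 50.1 CPM), a 1.63-fold lower level in the resistant library (1.49 to 1.78). The count of ATM was therefore 1.69 times that of ATR in the parental library and 5.87 times in the resistant one. ATRIP, the protein that brings ATR to single-stranded DNA, did not differ as ATR did, at 26.0 and 26.7 CPM (log2 ratio 0.04, interval -0.15 to 0.24). Exons of TREX1 on the same strand, at 14.6 and 24.0 CPM, cover 29.6% of the exon bases of ATRIP, so its level is uncertain.

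The kinases downstream were level. CHEK1, the main target of ATR, was at 38.0 and 36.8 CPM. CHEK2, the main target of ATM, was at 24.7 CPM in both. The log2 ratio was -0.04 for CHEK1 (-0.21 to 0.12) and 0.00 for CHEK2 (-0.20 to 0.20), and CHEK2 has 4 annotated pseudogene copies whose reads could be split with it.

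Genes that mark and hold broken ends stayed under 1.5-fold. H2AFX, the histone variant phosphorylated around breaks and the member of this group with the highest mean level, was at 268 and 352 CPM (log2 ratio 0.39). Of the break-binding complex, RAD50 was higher (92.2 and 135 CPM, log2 ratio 0.55) and NBN slightly lower (151 and 137 CPM, -0.14). The scaffold gene MDC1, which binds the phosphorylated histone, was lower at 293 and 205 CPM (-0.51), while TP53BP1, which favours end joining, was at 87.7 and 95.6 CPM (0.12). A readthrough gene model covers 90.6% of the exon bases of RAD50, and exons of TUBGCP4 on the other strand cover 28.9% of those of TP53BP1. The counting's use of strand is not stated, so reads of such genes cannot be told apart.

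**Figure D2:**
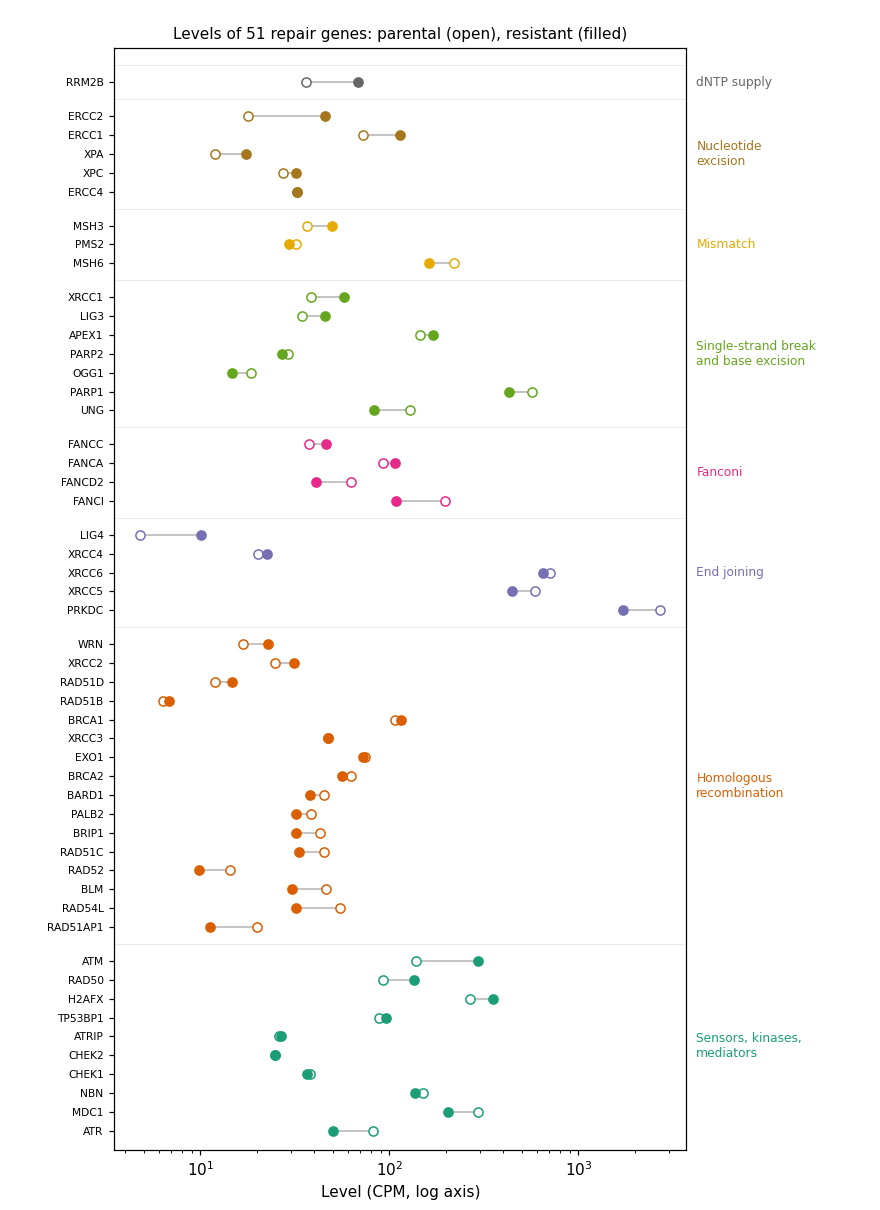
Level in CPM on a log axis of 51 repair genes in the parental (open) and resistant (filled) library, grouped by role. PRKDC stands alone at the high end (2713 and 1710 CPM) and LIG4 is the scarcest of them in the parental library (4.81 CPM).

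Homologous recombination had no member past 2-fold. At 1.5-fold, 3 of 16 were lower (18.75%) and 0 higher, against 16.4% and 19.3% of all tested genes. The median log2 ratio was -0.21, and 11 ratios were below 0, that of XRCC3 only barely. RAD51AP1, which promotes strand exchange, had 336 and 191 counts (20.0 and 11.3 CPM), a 1.77-fold lower level (1.48 to 2.13). RAD54L, a motor protein that acts during strand invasion, had 923 and 544 counts and was 1.71-fold lower (1.54 to 1.91). BLM, the helicase that dissolves recombination intermediates, had 777 and 515 counts and was 1.52-fold lower (1.36 to 1.70). With the authors' deposited log2 values BLM differed by -0.54, short of 1.5-fold. Exons of LRRC41 on the other strand, at 144 and 91.5 CPM (log2 ratio -0.65), cover 18.0% of the exon bases of RAD54L. RAD51AP1 has 1 annotated pseudogene copy.

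BRCA1, BRCA2 and their partners stayed under 1.5-fold. BRCA1 was at 107 and 115 CPM (log2 ratio 0.10) and its partner BARD1 at 45.3 and 37.8 CPM (-0.26). BRCA2, which acts at resected ends, was at 62.6 and 56.1 CPM (-0.16), PALB2, which bridges BRCA1 and BRCA2, at 38.7 and 32.1 CPM (-0.27), and the helicase gene BRIP1 at 43.1 and 32.0 CPM (-0.43). Other members of the group split: RAD51C was at -0.44, RAD51B at 0.10, RAD51D at 0.29, XRCC2 at 0.34 and XRCC3 at 0.00. RAD51B had the lowest CPM of the group, at 6.36 and 6.83, and its interval (-0.29 to 0.50) held 0. RAD52 (-0.54), the resection nuclease gene EXO1 (-0.04) and the helicase gene WRN (0.43) completed the group. Exons of KLC1 on the other strand cover 45.3% of the exon bases of XRCC3.

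The bases before the annotated start are shown for ERCC2, the member with the highest ratio, and for the 3 recombination genes that were at least 1.5-fold lower. They come from the RefSeq promoter table (build GRCh38.p14), are cut where GENCODE 29 places an exon, and are written 5′ to 3′ on the gene's strand. Capitals mark CCAAT boxes (CCAAT or its complement) and SP elements (GGGCGG or its complement). The recombination genes were picked after their values were seen.
ERCC2, chr19:45370588-45370823, minus strand: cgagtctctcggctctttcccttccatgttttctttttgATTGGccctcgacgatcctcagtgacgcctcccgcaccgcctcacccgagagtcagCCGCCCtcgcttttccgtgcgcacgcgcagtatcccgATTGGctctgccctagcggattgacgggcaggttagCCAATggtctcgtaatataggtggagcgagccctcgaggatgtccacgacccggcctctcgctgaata
RAD51AP1, chr12:4538640-4538889, plus strand: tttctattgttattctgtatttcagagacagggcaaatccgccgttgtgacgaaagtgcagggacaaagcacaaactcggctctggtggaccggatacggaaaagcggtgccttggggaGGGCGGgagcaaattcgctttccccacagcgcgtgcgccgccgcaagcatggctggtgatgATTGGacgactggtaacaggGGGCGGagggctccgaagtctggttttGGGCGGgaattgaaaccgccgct
RAD54L, chr1:46247438-46247687, plus strand: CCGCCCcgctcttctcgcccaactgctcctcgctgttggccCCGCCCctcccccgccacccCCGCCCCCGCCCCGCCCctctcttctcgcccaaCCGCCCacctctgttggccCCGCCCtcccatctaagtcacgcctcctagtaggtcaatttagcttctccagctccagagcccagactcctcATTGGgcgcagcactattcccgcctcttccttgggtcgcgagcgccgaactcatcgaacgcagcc
BLM, chr15:90717096-90717326, plus strand: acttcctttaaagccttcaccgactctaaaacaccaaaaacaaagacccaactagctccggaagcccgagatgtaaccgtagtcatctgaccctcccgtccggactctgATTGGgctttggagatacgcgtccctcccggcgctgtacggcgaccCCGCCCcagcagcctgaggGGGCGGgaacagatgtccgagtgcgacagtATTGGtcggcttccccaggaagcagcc

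The ERCC2 window held 3 CCAAT boxes and 1 SP element. RAD51AP1 had 1 and 3, RAD54L 1 and 7, and BLM 2 and 2. The other called members with a promoter were counted over 250 bases before the start. Here and in the printed windows only the first promoter listed for each gene was used. Other starts of a gene, such as ERCC1, were not counted. Of the higher ones, ATM had 1 CCAAT box and 0 SP elements, and LIG4 and ERCC1 had 0 of both. Of the lower ones, FANCD2 had 0 of both, and UNG and ATR each had 0 CCAAT boxes and 2 SP elements. Among the 45 measured members with a promoter in the table, 250 bases before the start held a CCAAT box on either strand in 46.7%, against 33.0% of all 27305 promoters and 35.4% of those of tested genes. SP elements were in 71.1% of members' windows, against 42.3% and 68.1%. An E2F element (TTTCCCGC, TTTGGCGC or TTTCGCGC) was in 3 windows, those of FANCC, MSH3 and XPC, or 6.67%, against 2.38% and 3.87%. The ratios of those 3 genes ran from 0.23 to 0.43. A match is a stretch of letters and says nothing of binding.

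End joining held the member with the highest CPM of all. PRKDC, the catalytic subunit of the DNA-dependent protein kinase, had 45664 and 29019 counts (2713 and 1710 CPM), a 1.59-fold lower level (1.56 to 1.61). It made up most of the difference in the members' summed share of all counts, which was 0.778% and 0.641% with PRKDC and 0.505% and 0.471% without it. The Ku subunits that recruit this kinase to broken ends differed less, XRCC5 at 590 and 446 CPM (log2 ratio -0.40) and XRCC6 at 710 and 647 CPM (-0.13, with 5 annotated pseudogene copies). The ligase gene LIG4 had 81 and 171 counts (4.81 and 10.1 CPM), a 2.09-fold higher level in the resistant library (1.60 to 2.76). With the authors' deposited log2 values LIG4 differed by 0.70, short of 2-fold. XRCC4, the obligate partner of that ligase, was at 20.3 and 22.6 CPM (0.16, -0.06 to 0.37).

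In the Fanconi pathway, which repairs crosslinks between strands, both genes whose protein products are ubiquitinated at the lesion were lower. FANCI had 3318 and 1835 counts (197 and 108 CPM), a 1.82-fold lower level (1.72 to 1.93) and the lowest ratio of all members. FANCD2 had 1057 and 695 counts (62.8 and 40.9 CPM) and was 1.53-fold lower (1.39 to 1.69), though with the authors' deposited log2 values it differed by -0.56, short of 1.5-fold. FANCA (92.0 and 107 CPM, log2 ratio 0.21) and FANCC (37.5 and 46.0 CPM, 0.29), members of the complex that carries out this ubiquitination, had ratios above 0. Exons of ZNF276 on the other strand cover 22.4% of the exon bases of FANCA. Those of POLG, also on the other strand (73.1 and 39.4 CPM, log2 ratio -0.89), cover 8.33% of the exon bases of FANCI. FANCD2 has 1 annotated pseudogene copy. Of 13 other Fanconi genes, 2 (15.4%) were at least 2-fold lower and 0 higher, against 8.29% and 12.1% of all tested genes. The lower genes were FANCB, at 39.0 and 14.0 CPM (-1.48), and FANCF, at 21.4 and 8.66 CPM (-1.31), both in the same complex as FANCA.

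Single-strand break and base excision genes were mixed. UNG, the glycosylase that removes uracil, was the single member called here, at 128 and 83.0 CPM, 1.54-fold lower (1.44 to 1.65). PARP1, the sensor of strand breaks that makes poly(ADP-ribose), was at 566 and 428 CPM (log2 ratio -0.41), and PARP2 at 29.05 and 26.9 CPM (-0.11). XRCC1, the scaffold that PARP1 recruits, had 648 and 980 counts, a log2 ratio of 0.58 that lay just short of 1.5-fold. LIG3, the ligase carried by XRCC1, was at 34.3 and 45.8 CPM (0.41), and the abasic-site nuclease gene APEX1 at 145 and 169 CPM (0.22). OGG1, which removes oxidised guanine, had the lowest CPM of the group, at 18.6 and 14.7 (-0.34). Exons of RFFL on the other strand cover 43.8% of the exon bases of LIG3. UNG and PARP1 each have 2 annotated pseudogene copies.

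The mismatch genes MSH3 and MSH6 encode subunits of alternative mismatch recognition complexes and differed in opposite directions, neither past 1.5-fold. MSH3 was at 36.7 and 49.4 CPM (log2 ratio 0.43) and MSH6 at 220 and 162 CPM (-0.44). PMS2, the nuclease subunit, was at 31.8 and 29.6 CPM (-0.11), and its 11 annotated pseudogene copies make that value uncertain. Exons of FBXO11 on the other strand cover 21.0% of the exon bases of MSH6.

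Nucleotide excision repair had the highest median among the role groups with at least 3 measured members, at 0.53 over 5, with 4 ratios above 0. ERCC2, a helicase of the transcription factor complex that opens DNA around a lesion, had 300 and 770 counts (17.8 and 45.4 CPM), a 2.54-fold higher level (2.22 to 2.92). ERCC1, the partner of the nuclease ERCC4, had 1225 and 1930 counts (72.8 and 114 CPM) and was 1.56-fold higher (1.45 to 1.68). ERCC4 itself was at 32.6 and 32.2 CPM (-0.01), and the damage recognition genes XPA (12.0 and 17.3 CPM) and XPC (27.2 and 31.9 CPM) were at 0.53 and 0.23. Exons of CD3EAP, on the other strand, cover 36.6% of the exon bases of ERCC1 and were at 18.5 and 25.6 CPM. KLC3, which covers 12.1% of those of ERCC2, had 7 and 72 counts (log2 ratio 3.26), and its part in the count of ERCC2 was not tested. The 19 other nucleotide excision genes did not show a median above 0. It was -0.18, and at 2-fold 0 were higher and 1 lower (5.26%), against 12.1% and 8.29% of all tested genes. The lower one, GTF2H3 (60.8 and 29.6 CPM, log2 ratio -1.04), encodes another subunit of the complex that holds ERCC2. The damage recognition gene DDB2 was at -0.99.

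RRM2B, a ribonucleotide reductase subunit that supplies nucleotides for repair, had 607 and 1151 counts (36.1 and 67.8 CPM), 1.88-fold more (1.70 to 2.08). MGMT, which removes alkyl groups from guanine, had 0 counts in both, which allows a level of up to 0.178 and 0.177 CPM.

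Levels can be set against each other only per length. Divided by the length of the longest principal transcript (GENCODE 29), the highest members were XRCC6 (262 and 239 CPM per kb), PRKDC (201 and 127), H2AFX (166 and 218), XRCC5 (157 and 119) and PARP1 (143 and 108). The lowest measured members were LIG4 (1.15 and 2.41 CPM per kb), RAD51D (1.20 and 1.47, with a principal transcript of 9988 bases) and RAD51B (2.45 and 2.63). On this scale ATM went from 10.5 to 22.4 CPM per kb and ATR from 9.88 to 6.07, so the kinases stood level in the parental library.

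The balance inside known partner pairs was taken as the ratio of their counts within each library, which no scaling of the libraries enters. The 15 pairs were chosen after the values were seen. Beside ATM and ATR, whose ratio differed by 1.80 on the log2 scale (1.66 to 1.94), LIG4 was higher against XRCC4 by 0.91 (0.47 to 1.35), MSH3 against MSH6 by 0.87 (0.70 to 1.04), RAD50 against NBN by 0.69 (0.57 to 0.81) and ERCC1 against ERCC4 by 0.66 (0.46 to 0.86). ATR against ATRIP (-0.75) and PRKDC against XRCC6 (-0.53) went the other way. Intervals held 0 for CHEK1 against CHEK2, BRCA2 against PALB2, and LIG3 against XRCC1. FANCD2 was higher against FANCI by 0.25 (0.09 to 0.41), while both were lower.

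**Figure D3:**
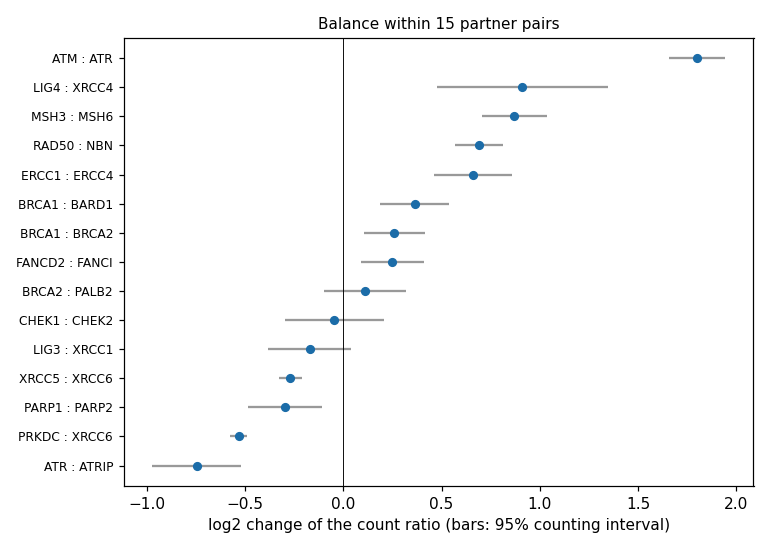
Change between the libraries of the count ratio of 15 partner pairs, on a log2 scale, with bars for the 95% counting interval. ATM against ATR stands farthest to the right at 1.80 and ATR against ATRIP farthest to the left at -0.75.

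Members resembled the genes beside them on the chromosome. For each member the median log2 ratio was taken over up to 12 tested neighbours, 6 on each side, leaving out other members. The sign matched that of the member for all 13 members past 1.5-fold, and for 39 of 51 members in all (76.5%). Over the other 12157 placed genes it matched for 70.3% of the 4344 past 1.5-fold and for 64.8% of all. Across the 51 members, Pearson's r was 0.74 and Spearman's rho 0.75, against 0.25 and 0.40 across the other genes. The sets were not matched for level or spread. The other genes include some near 1 CPM, and ratios over all tested genes ran from -10.27 to 12.73. Nearby genes share part of their window, so these points are not independent, and the difference between the sets was not tested. On chromosome 19, ERCC2, ERCC1 and XRCC1 all had ratios above 0, with neighbourhood medians of 0.42, 0.45 and 0.83. On chromosome 15, BLM and FANCI were both lower beside medians of -0.65 and -0.54. FANCD2 (-0.50) and OGG1 (-0.68) on chromosome 3, RAD54L (-0.63) on chromosome 1, and RAD51AP1 (-0.47) and RAD52 (-0.31) on chromosome 12 also lay among genes with medians below 0. ATM had a median of 0.57 around it and RRM2B 0.46, whereas those around LIG4 (0.10), PRKDC (-0.08), UNG (-0.17) and ATR (-0.18) were nearer 0. DNA copy number was not measured, and its part was not tested.

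Genes that start back to back with a member were close to it in ratio. Of 16 measured members with a protein-coding gene starting within 1000 bases on the other strand, 14 (87.5%) matched that gene in sign. Among other tested genes, 69.5% of 884 such pairs did. Some of the members' matches rest on ratios near 0, those of CHEK2 (0.002), XRCC3 (-0.001), NBR1 beside BRCA1 (0.01) and ERC1 beside RAD52 (-0.006). With total counts CHEK2 fell below 0 (-0.02), so the number of matches depends on the scaling. PRKDC (-0.67) and the replication helicase gene MCM4 (-0.69) had overlapping counting intervals. ATM (1.10) was paired with NPAT (0.88), an activator of histone genes, RAD51AP1 (-0.83) with C12orf4 (-0.74), and APEX1 (0.22) with OSGEP (0.23). Of the 2 pairs with opposite signs, PMS2 (-0.11) against AIMP2 (0.38) was one, and LIG4 (1.06) exceeded ABHD13 (0.40). The median gap between members and partners was 0.17, against 0.33 in the other pairs. These patterns were noticed after the values were seen.

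**Figure D4:**
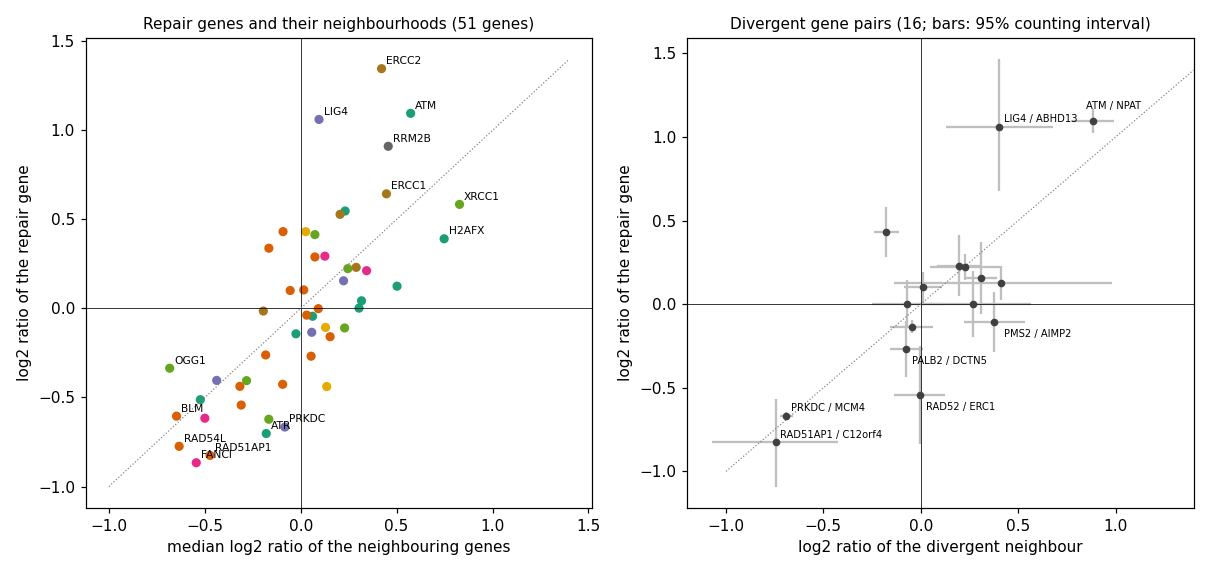
Left, log2 ratio of each of 51 repair genes against the median ratio of its neighbours on the chromosome, coloured by role group. Right, log2 ratio of 16 repair genes against that of the gene starting back to back with each, with 95% counting intervals. The dotted line marks equal values; PRKDC and RAD51AP1 lie near it with their partners, LIG4 and RAD52 above or below it.

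Repair genes outside the list of members were also mostly within 2-fold. Of 129 measured genes in the same pathways, 5 were at least 2-fold higher and 5 lower (3.88% each), with a median of -0.04. Over all tested genes these shares were 12.1% and 8.29%. The higher ones were RAD9A, a clamp subunit that activates ATR (12.3 and 27.7 CPM), the lesion-bypass polymerase genes REV1 (46.6 and 107 CPM) and POLH (33.4 and 71.6 CPM), the end-joining factor gene APLF (16 and 36 counts), and PARP3 (4.57 and 9.90 CPM). Beside FANCB, FANCF and GTF2H3, the lower ones were MUTYH, a glycosylase for adenine opposite oxidised guanine (14.0 and 5.54 CPM), and HMCES, which shields abasic sites in single-stranded DNA (96.8 and 45.5 CPM). With the deposited log2 values, RAD9A (1.07), REV1 (1.12), FANCB (-1.32), FANCF (-1.05), MUTYH (-1.13) and HMCES (-1.05) kept a difference of 1 or more, while POLH (0.93), PARP3 (0.83), APLF (0.32) and GTF2H3 (-0.97) did not.

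Cell cycle genes, with which recombination genes are often expressed, are given for comparison. Of 39 replication and G1/S genes, 0 were higher and 1 lower (2.56%) at 2-fold, against 12.1% and 8.29% of all tested genes. The lower one was POLA1 (136 and 66.4 CPM, log2 ratio -1.03), and the median was -0.18. Of 32 genes of G2 and mitosis, 0 passed 2-fold in either direction, with a median of 0.02. The recombination members' median of -0.21 lay close to that of the replication genes, and the part of cell cycle state in it was not tested.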

How the data were processed

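RNA from 2 libraries, 1 per group, was sequenced; samples were grouped by their titles. Per the labels' protocols, RNA was taken with TRIzol and libraries were made with a TruSeq kit. FastQC and STAR were used for read quality and alignment, per the submitters' processing notes, which name both GRCh38 and hg19. The authors deposited raw counts per gene symbol, per the file headers, and normalized log2 values whose method is not given in the sources used here. The counter, its annotation and its strand setting are not given either.

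Libraries were scaled with edgeR 4.0.16 (TMM) in R 4.3.3, giving effective sizes of 16834058 and 16974207. Genes at 1 CPM or more in either library were tested, and 0.5 was added to each count for log2 ratios. Intervals (conditional binomial, Clopper-Pearson, scipy 1.17.1) use the raw counts. They were tried only on simulated Poisson counts with known library sizes. Such counts hold no variation between cultures and no PCR copies, so the trial cannot show how well the intervals cover in these data. PCR copies of a molecule are counted as separate reads, which makes these intervals narrow. A count of 0 allows up to 3 counts. Intervals of pair ratios are normal approximations on the log scale. Alternatives were total counts, DESeq2 1.42.0 size factors, other filters, a pseudocount of 2 and the deposited log2 values.

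Values are given for members past 1.5-fold and for the member of highest and of lowest mean CPM in each role group. They are also given for main kinases and loading factors, and for other repair and cell cycle genes past 2-fold. Some listed genes are not reported here. Members and lists were chosen with earlier results of these data known. Older symbols were matched through RefSeq synonyms, and gene order came from RefSeq (GRCh38.p14).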

Additional observations from a re-analysis of the deposited data

How the results depend on the processing

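No paired analysis was possible because each group has 1 library. Under total counts, no filter beyond 1 count, at least 5 CPM and a pseudocount of 2, the members past 2-fold were 3 higher and 0 lower, and past 1.5-fold 5 higher and 8 lower, as reported. Median-of-ratios size factors gave 6 higher at 1.5-fold. The deposited log2 values gave 2 higher at 2-fold, and 5 higher and 6 lower at 1.5-fold, without BLM and FANCD2. With the whole interval beyond the fold, 2 members were higher at 2-fold, and at 1.5-fold 4 were higher and 3 lower, since a stricter rule drops genes near the line. With at least 5 CPM the background was 9.38% higher and 7.01% lower at 2-fold. Medians of the role groups moved by less than a typical counting half-interval of 0.15. Of 268 values for 45 genes, 264 stayed inside their counting interval and 4 did not, among them POLH (0.93) with the deposited log2 values and MET (-0.69) with total counts. No value changed sign except that of CHEK2, near 0. For LIG4, at 81 and 171 counts, depth limits the precision.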
